A study of Mus musculus with 20 samples.

Results

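Dner, Trp73, Igsf10 and Dap are 4 mouse genes whose transcripts hold an uninterrupted run of at least 6 CAG triplets and whose cerebellar RNA differed from late wild type (WT) in both groups of spinocerebellar ataxia type 7 (SCA7) mice. They were chosen by those differences, on the very libraries described here, and stand among 55401 genes of the count table and beside 205 other protein-coding genes with such a run. RNA was sequenced from the cerebellum of 20 mice on the C57BL/6J background, 1 library per mouse, in 5 conditions. At week 9 there were 3 untreated WT mice and 3 WT mice given AAV-shA4, and at week 25 there were 4 untreated WT mice, 5 SCA7 mice given AAV-shSCR and 5 SCA7 mice given AAV-shA4. The weeks are those of the labels, which do not say from when they count. The study's text counts from the injection, with the labels' number for the early AAV-shA4 mice and a different number for the late mice. It gives the late AAV-shSCR and untreated WT mice that were sequenced as males. The SCA7 140Q/5Q knock-in mice carry an expanded CAG repeat in 1 copy of Atxn7 and a normal repeat in the other. AAV PHP.eB is an engineered viral capsid that crosses into the brain from the blood, and it carried an eGFP reporter with an H1-driven hairpin RNA. The shA4 hairpin targets CAG repeats, shSCR is a hairpin of scrambled sequence, derived from another CAG-directed hairpin of the study, and untreated mice received saline. Every SCA7 mouse carried a vector and no late WT mouse did, so that genotype and vector cannot be told apart in the comparisons of SCA7 with WT. By the study's histology the vector reached most Purkinje cells and few granule neurons, which make up most of the tissue.

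A CAG repeat inside a reading frame can encode polyglutamine, and a long expansion makes the protein toxic to neurons. Purkinje cells, the output neurons of the cerebellar cortex, are the most vulnerable cells in these ataxias. A hairpin designed against the repeat can in principle pair with any transcript that holds a shorter CAG run, which is why such genes are of interest as unintended targets. In this tissue Dner encodes a transmembrane protein with EGF repeats that acts as a Notch ligand from Purkinje cells to Bergmann glia, and Igsf10 encodes a large secreted immunoglobulin superfamily protein. Trp73 encodes p73, a transcription factor of the p53 family needed for multiciliated cells and some neurons. Dap encodes death-associated protein, a small proline-rich substrate of mTOR that restrains autophagy.

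The runs lie in different parts of the 4 transcripts. They are shown because they are the sequence a CAG-directed hairpin could meet, and capitals mark the run in transcript direction, as read from GENCODE M21 transcripts (GRCm38). The Dner and Trp73 runs are coding and are printed with the bases around them. The untranslated runs of Igsf10 and Dap are printed in a short window.
Dner: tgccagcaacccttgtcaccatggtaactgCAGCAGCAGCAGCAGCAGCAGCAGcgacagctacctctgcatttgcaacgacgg
Trp73: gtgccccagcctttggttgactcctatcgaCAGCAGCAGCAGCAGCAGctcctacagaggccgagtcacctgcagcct
Igsf10: attcCAGCAGCAGCAGCAGCAGCAGcaatc
Dap: CAGCAGCAGCAGCAGCAGCAGCAGcaccca

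The Dner run has 8 CAG and lies on the minus strand at chr1:84585551-84585574, in exon 2 of 13 of the longest annotated transcript. Its frame reads AGC, so that it encodes serine and not glutamine. The first base of the run is the last base of codon 108, and the serine codons follow that codon. All 4 annotated Dner transcripts hold it, and it is coding in 2 of them, untranslated in 1 and in a transcript with no annotated coding part in 1. The Trp73 run has 6 CAG, lies on the minus strand at chr4:154062526-154062543 in exon 10 of 14 of the longest transcript, and encodes glutamine from codon 390. It is present in 5 of 7 Trp73 transcripts. The Igsf10 run has 7 CAG and lies in the 5' UTR, in exon 1 of 7 of the longest transcript, on the minus strand at chr3:59343929-59343949. Only 2 of 4 Igsf10 transcripts hold it. The Dap run, the longest with 11 CAG, lies in the 3' UTR in exon 4 of 4 of the longest transcript, on the plus strand at chr15:31273340-31273372, and its last 8 CAG are printed. It is present in 4 of 5 Dap transcripts. Of the 4 runs, that of Trp73 alone is read as glutamine. The counts are per gene and do not separate transcripts with the run from those without it.

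**Figure D1:**
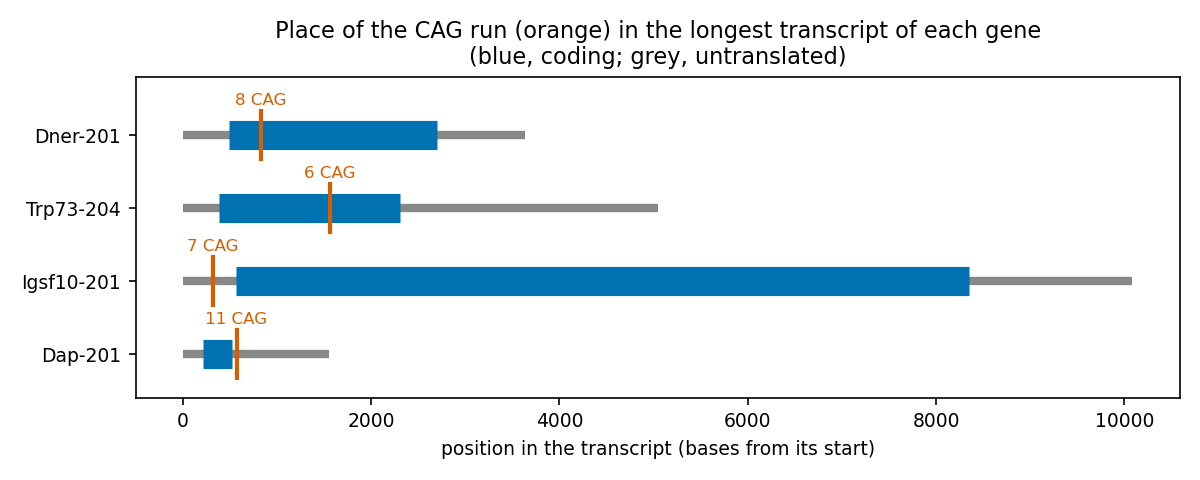
Position of the CAG run (orange) in the longest annotated transcript of each gene, with the coding part in blue, untranslated parts in grey and the distance from the transcript start in bases. The run is coding in Dner and Trp73, before the coding part in Igsf10 and after it in Dap.

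The libraries held 31465586 to 54570503 counts. Those of the 2 week 9 groups did not overlap in depth, with 36245752 to 39208298 for AAV-shA4 and 47455917 to 49212593 for untreated mice. Atxn7, which carries the expansion, had similar mean levels in the 3 late groups, at 48.5 ± 1.97 (SD, n = 4) CPM (counts scaled to the library size) in WT, 49.4 ± 2.90 (n = 5) with AAV-shSCR and 48.1 ± 2.70 (n = 5) with AAV-shA4. The gene count does not separate the 2 alleles. Markers of all cerebellar cell types fixed for checking the tissue were detected, with no marker at 0 throughout a group. Choroid plexus markers differed widely between mice, with summed levels of 52.7 to 3385 CPM in the AAV-shA4 SCA7 group alone. No label says that mice of a group came from separate litters or cages, and p-values set group differences against the spread between these mice alone.

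The 4 genes had very different levels. Per kilobase of the median annotated transcript, the late WT mean level was 584 CPM for Dner, 47.2 for Dap, 6.86 for Trp73 and 0.954 for Igsf10. Per kilobase of the longest transcript the order was kept, with 223, 16.2, 2.61 and 0.798 CPM. Counts behind these levels were 18538 to 41876 per library for Dner, 506 to 1488 for Dap, 282 to 615 for Trp73 and 277 to 683 for Igsf10, so that Dner was measured with the smallest counting error.

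Dner was lower in both SCA7 groups than in every WT group. Late WT mice had 786, 838, 808 and 814 CPM. AAV-shSCR SCA7 mice had 596, 558, 584, 537 and 591 CPM. AAV-shA4 SCA7 mice had 570, 598, 630, 605 and 590 CPM. All 10 SCA7 values lay below the lowest WT value, and the SCA7 groups overlapped each other. At week 9 the levels were 819, 771 and 792 CPM in untreated WT and 872, 818 and 805 CPM with AAV-shA4. The 3 WT groups overlapped, and their means were within 1 SD of their neighbours in the order of levels.

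Trp73 was highest in late WT mice. These had 11.01, 12.96, 14.3 and 14.3 CPM. AAV-shSCR SCA7 mice had 8.30, 9.16, 8.80, 8.37 and 9.48 CPM. With AAV-shA4 the SCA7 mice had 10.5, 8.29, 8.78, 11.4 and 8.54 CPM, and the highest of these overlapped the lowest late WT mouse. Untreated WT mice at week 9 had 9.62, 8.997 and 9.20 CPM and those with AAV-shA4 had 10.1, 10.9 and 9.91 CPM. The late SCA7 levels therefore lay near the week 9 WT levels, and neighbouring groups below late WT overlapped.

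Igsf10 was the member with the opposite direction. Late WT mice had the lowest levels, at 7.47, 7.35, 8.52 and 8.85 CPM. AAV-shSCR SCA7 mice had 13.4, 11.95, 13.9, 13.5 and 14.6 CPM. AAV-shA4 SCA7 mice had 15.2, 15.5, 14.6, 10.998 and 13.9 CPM. Every SCA7 mouse was above every late WT mouse. The means of the week 9 groups lay between, although the lowest AAV-shA4 SCA7 mouse fell within the range of both. Week 9 mice had 9.90, 11.5 and 9.45 CPM when untreated and 11.2, 10.999 and 10.8 CPM with AAV-shA4.

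Dap had its highest level in untreated WT mice at week 9, at 29.7, 27.6 and 31.0 CPM. WT mice with AAV-shA4 at that time had 25.7, 25.2 and 24.8 CPM. Late WT mice had 25.1, 26.5, 25.2 and 24.1 CPM. AAV-shSCR SCA7 mice had 19.5, 18.5, 19.5, 17.1 and 17.6 CPM. The lowest level was that of AAV-shA4 SCA7 mice, at 17.1, 17.7, 17.2, 16.0 and 17.0 CPM. The SCA7 groups overlapped each other and lay below all WT mice.

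**Figure D2:**
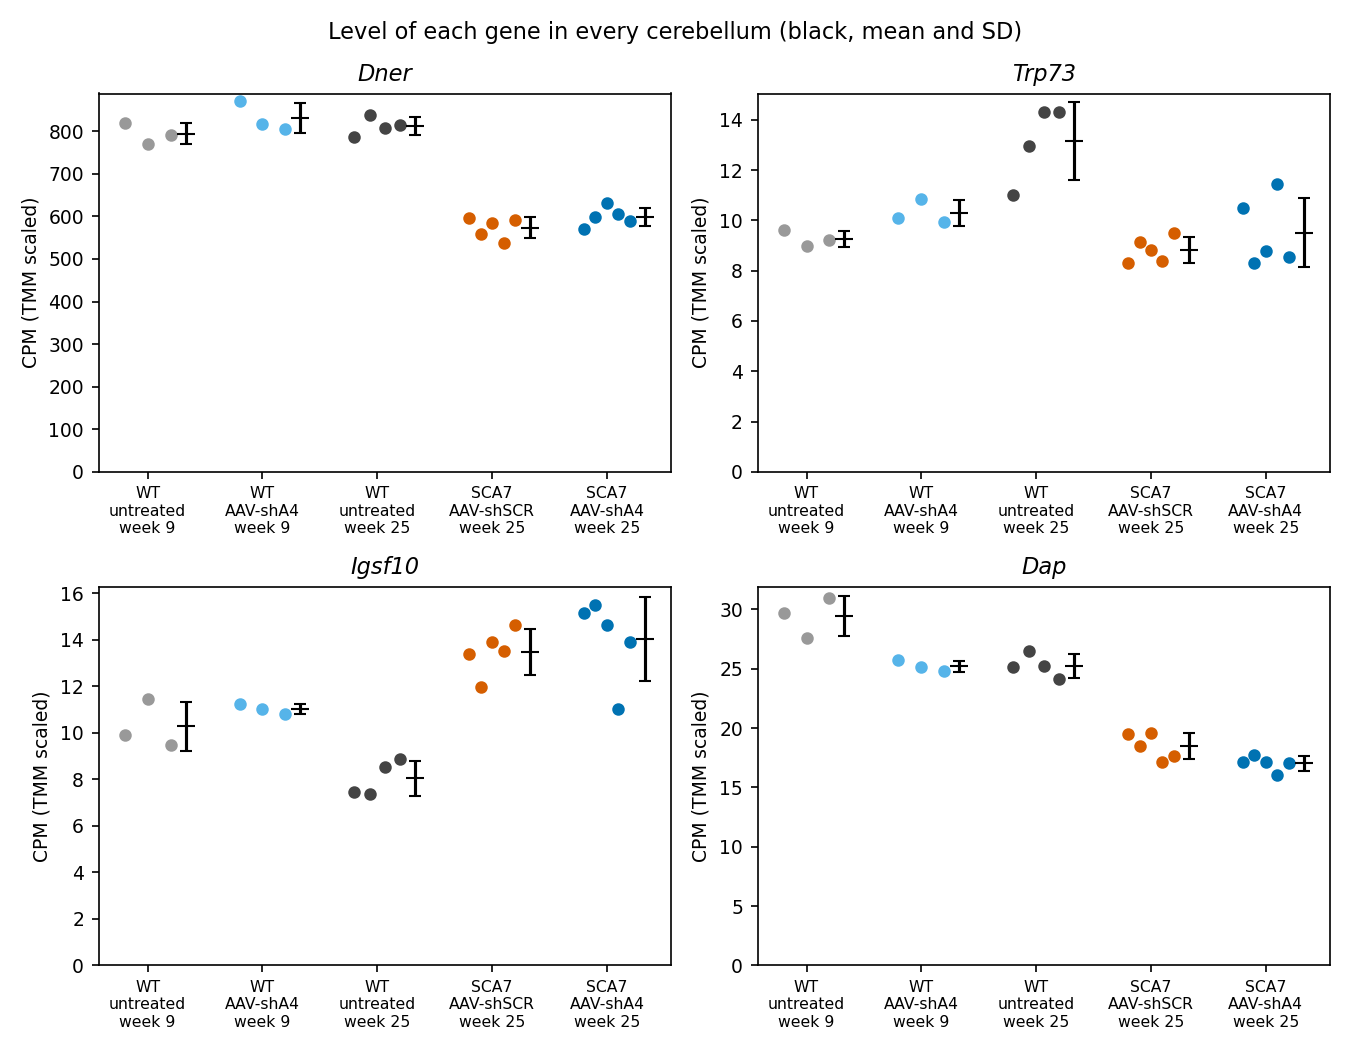
CPM of each gene (vertical axes from 0) in every cerebellum, with each point a mouse, and the mean and SD of each group in black. Dner and Dap are lower in SCA7 than in all WT mice, Igsf10 is higher in SCA7 than in late WT, and Trp73 in SCA7 lies near its week 9 WT level.

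The comparisons of SCA7 with late WT chose the members, and the following values are given as a description. Calls required a fold change above 1.3 in either direction with an adjusted p under 0.05. With AAV-shSCR, 4 of 4 members were called, where 4.02% of all 14862 genes tested were, and the 4 were free of overlap with late WT, as were 16.7% of all genes. With AAV-shA4, 4 of 4 were called against 3.45% of all genes, and 3 of 4 did not overlap late WT against 13.5%. Of all genes tested 2.66% were called in both. The log2 fold change of Dner was -0.50 (SE 0.037) with AAV-shSCR and -0.44 (SE 0.037) with AAV-shA4. For Trp73 it was -0.57 (SE 0.10) and -0.46 (SE 0.099). Igsf10 had 0.75 (SE 0.095) and 0.81 (SE 0.095). Dap had -0.45 (SE 0.051) and -0.57 (SE 0.051). Both columns of values share the 4 late WT mice. In bulk tissue, fewer cells of a type and less RNA per cell cannot be told apart.

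Markers of Purkinje cells went the way of Dner, Trp73 and Dap, and opposite to Igsf10. With AAV-shSCR 16 of 30 fell and none rose, and with AAV-shA4 15 of 30 fell and none rose, the largest log2 fold changes with AAV-shSCR being -1.06 for Fam107b, -0.87 for Gng13 and -0.78 for Rgs8. Their median log2 fold change was -0.41 and -0.38, against 0.0017 and 0.0061 over all genes tested. Their summed level was 16365 to 18421 CPM in late WT, 12061 to 13130 with AAV-shSCR and 11990 to 13665 with AAV-shA4. The part of these markers in the members' values was not tested. Oligodendrocyte markers also moved, with 6 of 16 falling with AAV-shSCR and 4 of 16 with AAV-shA4, and with summed levels of 6001 to 7098 CPM in late WT, 4409 to 5279 with AAV-shSCR and 4895 to 5539 with AAV-shA4. Of the 18 granule cell, 16 Bergmann glia and astrocyte, 14 microglia and 10 choroid plexus markers none was called in either group. The summed Bergmann glia and astrocyte markers were nevertheless at 6679 to 6942 CPM in late WT, 6036 to 6421 with AAV-shSCR, without overlap, and 5971 to 6879 with AAV-shA4, and 14 and 13 of the 16 had a lower estimate. All 10 choroid plexus markers had a lower estimate with AAV-shA4, with a median log2 fold change of -0.57, and 8 of 10 with AAV-shSCR, with a median of -0.14. In the remaining lists the same 2 interneuron, Golgi and unipolar brush cell markers of 14 were called in each group (Grm2 and Eomes, lower). Other calls were 1 ependyma and motile cilia marker of 19 (Dnah11, lower) and 1 meningeal fibroblast and vessel marker of 16 (Cldn5, lower). Of the 19 ependyma and motile cilia markers 12 had a lower estimate with AAV-shSCR (median -0.18). With AAV-shA4 13 of the 19 had a higher estimate (median 0.070).

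AAV-shA4 was compared with AAV-shSCR within the SCA7 mice to see whether the CAG-directed hairpin changed the members. None of the 4 was called, as for all 14862 genes tested (0% by edgeR, with 1222 genes at an unadjusted p under 0.05 and 5 calls by DESeq2 without shrinkage). The contrast is not the one that chose the members but uses the same SCA7 libraries. The 4 members' groups all overlapped, where 1.49% of all genes had groups that did not. Dner was 1.04 times the AAV-shSCR level, with a 95% interval of the fitted ratio of 0.991 to 1.098 and an adjusted p of 0.659 by edgeR's quasi-likelihood test. Trp73 had a ratio of 1.08 (0.934 to 1.24, adjusted p = 0.797 by edgeR). The Igsf10 ratio was 1.04 (0.918 to 1.18, adjusted p = 0.885 by edgeR).

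Dap was the member nearest to a difference in that comparison. The AAV-shA4 mice averaged 17.0 ± 0.602 CPM (SD, n = 5), while the mean of the AAV-shSCR mice was 18.5 ± 1.08 CPM (SD, n = 5), a ratio of 0.922 (0.858 to 0.989). All 5 AAV-shA4 mice lay below the median of the AAV-shSCR mice. Unadjusted, edgeR's quasi-likelihood p was 0.0268 and the two-sided exact permutation p was 0.0476, and after adjustment over all genes edgeR's p was 0.563, so that the difference did not pass. Of all genes tested 8.22% had an unadjusted p under 0.05, and 1 of the 4 members did. In the same comparison 10 of 10 choroid plexus markers had a lower estimate (median log2 fold change -0.37), with summed levels of 52.7 to 3385 CPM with AAV-shA4 and 669 to 2998 CPM with AAV-shSCR. Of the granule cell markers 13 of 18 had a lower estimate (median -0.05), with sums of 9568 to 10722 and 10653 to 11051 CPM. Other lists went the other way, with a higher estimate for 24 of 30 Purkinje cell and 13 of 16 oligodendrocyte markers. So did 13 of 16 Bergmann glia and astrocyte markers and 14 of 19 ependyma and motile cilia markers. Higher estimates were held by 8 of 14 interneuron, Golgi and unipolar brush cell, 7 of 14 microglia and 7 of 16 meningeal and vessel markers. No marker of these lists was called, and their part in the Dap value was not tested.

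The same hairpin was compared with no vector in WT mice at week 9, in libraries that played no part in choosing the members. None of the 4 was called, where 0.0543% of all 14733 genes tested were (8 genes). Hairpin, capsid and reporter cannot be told apart there, and the depths of the groups do not overlap. Dap again had the lower mean with AAV-shA4, at 25.2 ± 0.456 CPM (SD, n = 3), while untreated mice averaged 29.4 ± 1.70 CPM (SD, n = 3), a ratio of 0.857 (0.774 to 0.948). All 3 treated mice were below all 3 untreated mice. The unadjusted edgeR p was 0.00612 and the adjusted p was 0.283, and the exact permutation p was 0.1, which is the smallest that 3 against 3 mice allow. Trp73 had groups that did not overlap either, higher in all 3 AAV-shA4 mice, with a ratio of 1.11 (0.969 to 1.27, adjusted p = 0.559 by edgeR). Groups of 2 of the 4 members thus did not overlap, as did 16% of all genes, and 1 of 4 had an unadjusted p under 0.05, as did 11.1%. For Dner the ratio was 1.05 (0.969 to 1.13, adjusted p = 0.654 by edgeR), and for Igsf10 it was 1.07 (0.927 to 1.24, adjusted p = 0.719 by edgeR). Both had overlapping groups.

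Other genes than Dap also had a lower estimate with AAV-shA4 at an unadjusted p under 0.05 in both pairs of groups. Of 14643 genes tested in both, 111 were lower at that level in both pairs and 69 were higher. The pairs differ in genotype, age and control, which was a scrambled hairpin in one and saline in the other. Markers of ependyma and motile cilia had summed levels of 105 to 118 CPM with AAV-shA4 and 80.6 to 90.3 CPM in untreated mice at week 9, and 18 of 19 had a higher estimate. Of these markers 1 was called, higher, where 0.0543% of all genes were, and Trp73 had a higher estimate there without a call. Against late WT 13 of the 19 had a higher estimate with AAV-shA4, where Trp73 was lower. With AAV-shSCR 12 of the 19 had a lower estimate, as Trp73 did. The part of these markers in the Trp73 value was not tested.

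**Figure D3:**
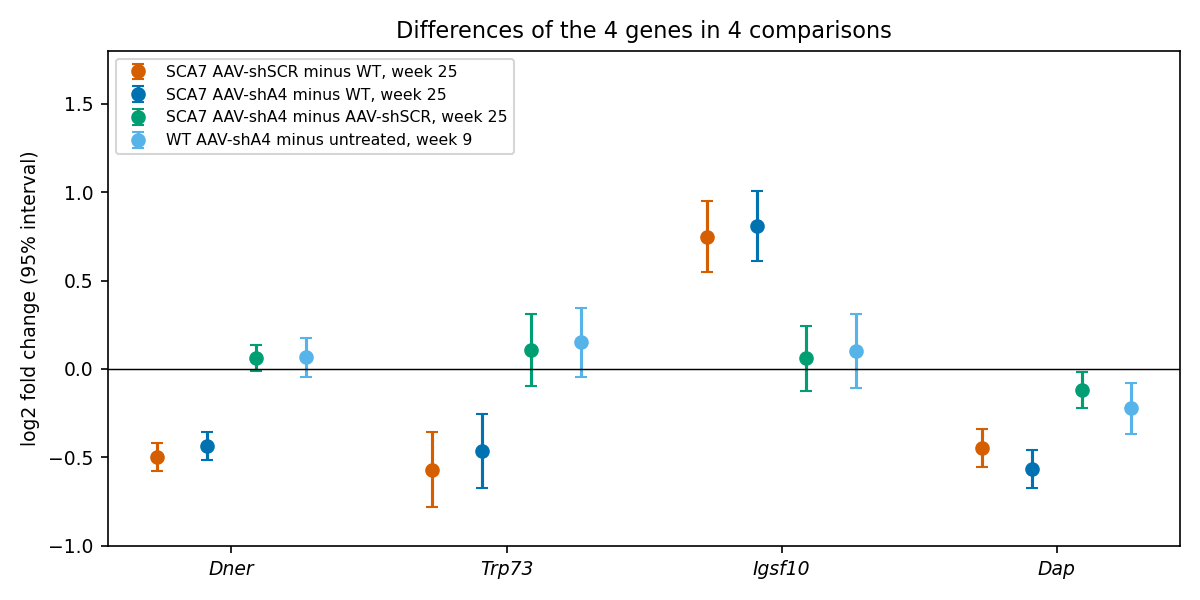
Log2 fold change of each gene with its 95% interval in 4 comparisons. The SCA7 minus WT values (orange and dark blue) lie away from 0 by choice of the genes, and the values for the hairpin (green and light blue) include 0 except those of Dap, which did not pass the adjustment over all genes.

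Untreated WT mice of week 25 and week 9 differed most in Trp73, whose log2 fold change between them was 0.50 (SE 0.10), with no overlap. The log2 fold change was -0.35 (SE 0.10) for Igsf10 and -0.22 (SE 0.054) for Dap, both without overlap, and for Dner it was 0.03 (SE 0.042). Late WT mice entered the choice of the members, and age and any difference between sequencing runs cannot be told apart, so these are values without a test.

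The other genes with CAG runs gave the setting for the 4. Of 209 protein-coding genes with 6 or more CAG, 38 did not pass the filter on low counts in the late libraries, and all 4 members passed. With AAV-shSCR against late WT 5 fell and 1 rose (3.51% of those tested), and with AAV-shA4 4 fell and 1 rose (2.92%), the members included. The shares over all genes tested were 4.02% and 3.45%. Without the 4 members, 2 fell with AAV-shSCR (1.20%) and 1 fell with AAV-shA4 (0.599%), and none rose. Leaving out genes that were chosen as called lowers these 2 shares by construction. The median log2 fold changes without the members were 0.0090 and -0.012, against 0.0017 and 0.0061 over all genes. Kcnh3, a voltage-gated potassium channel gene with 7 CAG read as serine, also passed the limits in both SCA7 groups without being a listed member. It had 1.91 to 2.87 CPM in late WT mice, 0.290 to 0.795 CPM with AAV-shSCR and 0.353 to 1.07 CPM with AAV-shA4, with log2 fold changes of -2.37 (SE 0.31) and -2.08 (SE 0.30). Abr, with 6 CAG in the 5' UTR, lay just outside the limits, with log2 fold changes of -0.39 (SE 0.043) and -0.31 (SE 0.043) and a call in the AAV-shSCR group alone. On the inside, the smallest member values were those of Dner and Dap given above. Trp73 has the shortest run that the threshold admits, and among genes with 5 CAG, just below it, Baiap2, Cacna1e and Foxp4 passed the limits in both groups.

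None of these CAG-run genes was called for AAV-shA4 against AAV-shSCR, nor was any called at week 9. Within SCA7 mice 106 had a lower and 65 a higher estimate with AAV-shA4, with a median log2 fold change of -0.021. Over all genes tested 7414 were lower and 7448 higher, with a median of 0.00021. Of the CAG-run genes 21 had an unadjusted edgeR p under 0.05 (12.3%), 17 of them lower, against 8.22% of all genes. At week 9 the split was 84 lower and 87 higher with a median of 0.0011, and 24 had an unadjusted edgeR p under 0.05 (14.04%), 13 of them lower. Over all genes tested at week 9, 7374 were lower and 7359 higher, and 11.1% had such a p. In the class with 11 or more CAG, to which Dap belongs, 11 of 27 had a lower estimate within SCA7 and 14 of 27 at week 9. Among the 18 genes tested with the run in the 3' UTR, Dap included, 14 had a lower estimate within SCA7 and 9 at week 9. The classes with shorter runs leaned to lower estimates within SCA7, with 61 of 96 lower at 6 to 7 CAG and 34 of 48 at 8 to 10 CAG. At 11 or more CAG 16 of 27 were higher there. Of coding runs 81 of 127 were lower within SCA7, whereas of runs in the 5' UTR 8 of 19 were lower and 11 higher.

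**Figure D4:**
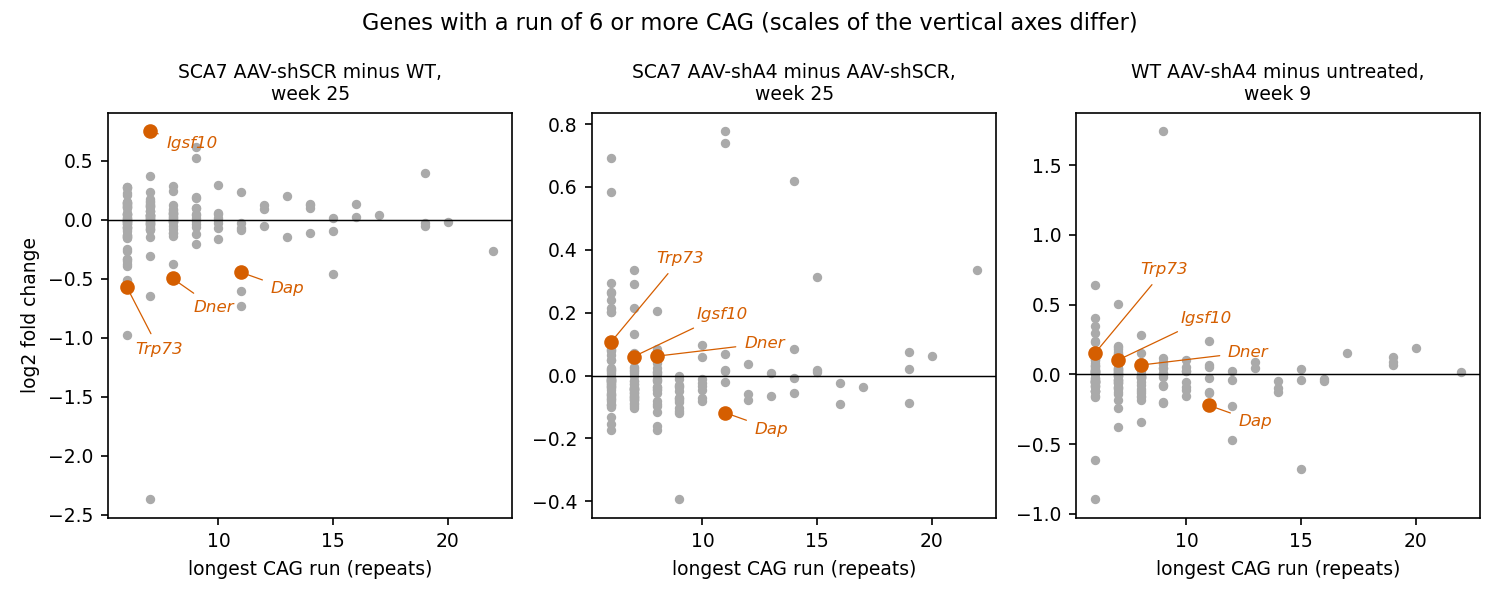
Log2 fold change of each tested gene with 6 or more CAG against its longest run in triplets, in 3 comparisons with separate vertical scales, members in orange. The members lie away from 0 against WT by choice and among the other genes in both comparisons of the hairpin, Dap being the only member below 0 there.

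Calls among genes of the members' pathways are given beside the shares over all genes tested. Against late WT these shares were 4.02% with AAV-shSCR and 3.45% with AAV-shA4. The members were chosen as called, so that their own counts are no measure for the lists. In the Notch list, to which Dner belongs, none of the 44 other genes tested was called with AAV-shSCR and 1 rose with AAV-shA4 (Notch4, log2 fold change 0.55, SE 0.089). The receptors Notch1 and Notch2 had log2 fold changes of 0.13 and 0.10 with AAV-shSCR, and the ligand gene Jag1 had 0.18. Cntn1 and Cntn6, adhesion molecules that bind Notch, had 0.09 and 0.15. The target genes Hes1 and Hes5 had -0.23 and -0.45, and none of these 7 was called. Of 33 other p53 family and target genes, Phlda3 fell with AAV-shSCR (-0.44, SE 0.13) and Fas rose with AAV-shA4 (0.53, SE 0.15). Trp53 had log2 fold changes of 0.23 (SE 0.045) and 0.11 (SE 0.045) and was called in neither group, and Trp63 had -0.10 (SE 0.21) and 0.14 (SE 0.21). No call was made in either SCA7 group among 11 multiciliation regulators, 17 other immunoglobulin superfamily (IGSF) genes, 42 other autophagy and mTOR genes and 4 death-associated protein kinases. Mtor, Ulk1 and Sqstm1 had log2 fold changes of -0.02, 0.06 and 0.01 with AAV-shSCR. None of these 6 lists held a call for the hairpin in either pair of groups, where 0% of all genes within SCA7 and 0.0543% at week 9 were called.

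The genes most alike to each member over the 14 late libraries were different from member to member. Dner was closest to Cep76, Sbk1 and Icmt, with Pearson's r of log2 CPM of 0.996, 0.993 and 0.992. Within groups, after subtraction of the group means, these r were 0.938, 0.856 and 0.885. For Trp73 the genes most alike included Spata2l (0.938) and Gls2 (0.925), whose r within groups were 0.872 and 0.746. For Igsf10 they were Necab1 (0.960), Gtf2a1 (0.934) and Adamts6 (0.924), and for Dap they were Baiap2 (0.968), Tuba8 (0.966) and Ywhah (0.961). Their r within groups were lower, at 0.699, 0.653 and 0.513 for Igsf10 and at 0.650, 0.732 and 0.560 for Dap. Among the members themselves r within groups lay between -0.404 and 0.411, the extremes being Trp73 with Dap and Dner with Dap. These are descriptions over 14 libraries that share the group differences, out of 13356 genes compared with each member.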

How the data were processed

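RNA from 20 cerebella was made into stranded polyA libraries. The authors deposited raw read counts per Ensembl gene, and their processing notes name cutadapt 1.10, Bowtie2 2.2.8, STAR 2.5.3a and HTSeq 0.6.1p1 with mm10. Whether the counting used strand is not given in the sources used here. Opposite-strand genes overlap Dner, Trp73 and Igsf10 (Med12l among them) and 2 same-strand ones overlap Dner, and their reads may not be separable from those of the members. Gene symbols, positions and transcripts came from GENCODE M21, which holds 55141 of the identifiers; 260 were not used. The longest CAG run was taken from the sense strand of 141767 transcripts.

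Protein-coding genes were filtered with filterByExpr (minimum count 10, total 15), scaled by TMM and tested with edgeR 4.0.16 quasi-likelihood fits (R 4.3.3), 1 for the 14 late libraries and 1 for the 6 early ones, with Benjamini-Hochberg adjustment over all genes. The common biological coefficient of variation was 0.0790 late and 0.0729 early. CPM used TMM over all 20 libraries. Exact permutation tests used log2(CPM + 0.1). The fits were tested on simulated data. DESeq2 1.42.0 and other settings were alternatives. Intervals are 95%.

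The members and lists were chosen with earlier results of these data known. Named genes are the members, fixed genes of their pathways, at most 3 called genes per list, other CAG-run genes called or with the longest runs, and the 3 genes most alike to each member with a mean of at least 1 CPM. Replicates of a group were no copies of each other, since the chi-square of each pair over its degrees of freedom was at least 4.87. Replicate numbers did not pair the mice. Some genes that the rule for named genes selects are not reported here.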

Additional observations from a re-analysis of the deposited data

How the results depend on the processing

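The 4 members kept their direction in all alternatives run, and kept their side of the call limits in all but 1. Trp73 in AAV-shA4 SCA7 against WT moved to -0.35 with DESeq2 and a normal prior, under the fold limit. At a fold change above 1.5, 1 of the 4 was called in each SCA7 group. Genes called with AAV-shSCR and with AAV-shA4 against WT numbered 287 and 266 with that prior, 279 and 227 above 1.5, and 2309 and 2018 with no fold limit, against 597 and 513. For CAG-run genes the counts were 10 and 8 from 5 CAG, 2 and 2 from 8 CAG, 36 and 28 with no fold limit and 2 and 2 above 1.5, against 6 and 5. AAV-shA4 against AAV-shSCR gave 0 calls with edgeR (1222 genes at an unadjusted p under 0.05), 5 with DESeq2 without shrinkage and 3 with the prior. At week 9, 8 calls became 20 with all 20 libraries in one fit, 16 with all genes, 53 with DESeq2 without shrinkage, 26 with no filter, 19 with the robust fit, and 1 to 43 when a mouse was left out. There the counts without AAV-shA4 replicate 2 and 3 were 1 and 43, and without untreated replicate 2 and 3 they were 4 and 2. The cause was not tested. Mice with the same replicate number correlated by -0.219 to 0.476 and 4 of 18 correlated best with their own number, so the numbers are only names. With the replicate block the week 9 calls were 37, and no call of a member changed. Counts of 277 to 683 limit Igsf10 and Trp73.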

Other observations

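Capn6, with 22 CAG in the 5' UTR, was at about 1 CPM. Its log2 fold changes were -0.27 (SE 0.30) with AAV-shSCR against WT and 0.33 (SE 0.28) for AAV-shA4 against AAV-shSCR, and it was called in neither comparison.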
